A study of Mus musculus with 14 samples.

Results

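The small leucine-rich proteoglycans (SLRPs) examined here are 8 genes, Fmod, Ogn, Dcn, Lum, Bgn, Aspn, Prelp and Omd, taken by symbol from the 17927 genes counted in newborn mouse brains. All 8 were in the count table and all had counts in every library. RNA-SEQ was used to measure RNA in the brains of 7 wild type (WT) and 7 Capn15 KO (KO) mice at postnatal day 2 (P2), to ask which mRNAs differ in abundance when the protease Calpain-15 is lost. The mice came from 6 litters, were untreated, and belonged to lines made on C57BL/6J mice. The labels give WT or KO as the only genetic difference and do not name the allele. The methods mention a Capn15(lacZ-Neo) line and a line with floxed Capn15, without saying which gave these brains. The KO is not restricted to a cell type by any label, and each library holds 1 brain.

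SLRPs are secreted proteins with a core of leucine-rich repeats that carries chondroitin, dermatan or keratan sulfate chains, or none. They bind fibrillar collagens and set the width and spacing of the fibrils, and they hold growth factors such as those of the TGF-beta family in the matrix. In brain they are known mainly from the fibroblasts of the meninges and of vessel walls rather than from neurons.

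No member passed the test between genotypes, while Fmod and Ogn, the members with the lowest p-values, had mean levels 29.4% and 22.7% lower in the KO brains. Dcn, the member with the most counts, had the same mean in both genotypes to within 0.494%. Lum, Aspn and Omd had means 15.4%, 13.3% and 13.6% lower in the KO brains, and Prelp and Bgn 7.41% and 3.98% lower.

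Each library held between 37620954 and 70910163 counts. A level is given below as CPM, the counts of a gene per 1000000 counts of its library after scaling with TMM factors. The floor of 3 counts stood at 0.0797 CPM in the smallest library and covers counting error only, and the members had between 27 counts, for Omd in KO replicate 3, and 2766 counts, for Dcn in KO replicate 6. Capn15 itself was between 24.98 and 27.3 CPM in WT replicates 1 to 6 and between 12.2 and 14.5 CPM in KO replicates 1 to 6. In litter F, which holds replicate 7 of both genotypes, the library labelled WT was at 18.7 CPM and the library labelled KO at 20.2 CPM, so that Capn15 went against these 2 labels. Results on the members are therefore also given without this litter. The labels name neurons as the cell type and brain as the tissue. The 8 neuron markers summed to between 3756 and 4157 CPM, and markers of glia, vessels, meninges, choroid plexus and blood were detected beside them in every library. RNA from whole brain cannot tell fewer cells of a type from less RNA in each cell.

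Differences between genotypes were tested by the quasi-likelihood method of edgeR, in 1 fit to all genes and libraries that also held litter and sex. The FDR is the p-value after Benjamini-Hochberg adjustment over all 17927 genes, with a threshold of 0.05. A log2 fold change below 0 means a lower level in KO. The SE given with a fold change is its size divided by the square root of the F statistic of this test. With this test 0 of the 8 members were called, against 0.00558% of all genes, which is 1 gene. That gene was not Capn15, whose log2 fold change was -0.81 (SE 0.118) with FDR 0.0747. Without litter F, Capn15 had a log2 fold change of -0.98 with FDR 1.58e-06 by the same test. A member that was not called is therefore not shown to be unchanged. At an unadjusted p under 0.05, 4 of 8 members (Fmod, Ogn, Lum and Aspn) were lower in KO, against 2.26% of all genes. The members were chosen with earlier results of these data known. Their shares here and below therefore describe them and do not test them as a set. The median log2 fold change of the 8 members was -0.25, while that of all genes was 0.00. Of the members 7 of 8 had a log2 fold change below 0, against 48.6% of all genes, and the exception was Dcn at 0.00. The likelihood ratio test of edgeR called 2 members, DESeq2 called 1 and limma-voom called 0, against 0.19%, 0.0948% and 0.00558% of all genes. By the exact permutation test, which uses no model, 3 of 8 members (Fmod, Ogn and Aspn) were lower at an unadjusted p under 0.05, against 0.92% of all genes. The same 3 members were lower in KO in 6 or more of the 7 pairs, against 5.52% of all genes, and 5 of 8 were lower in 5 or more, against 21.5%. The pairs are brains of the same replicate number and litter. Litter B holds replicates 2 and 3 of both genotypes, so that its partners are joined by number alone. With these partners exchanged, Fmod, Ogn and Aspn stayed at 6, 7 and 6 of 7 pairs, Omd went from 5 to 6 and Lum from 4 to 5.

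**Figure D1:**
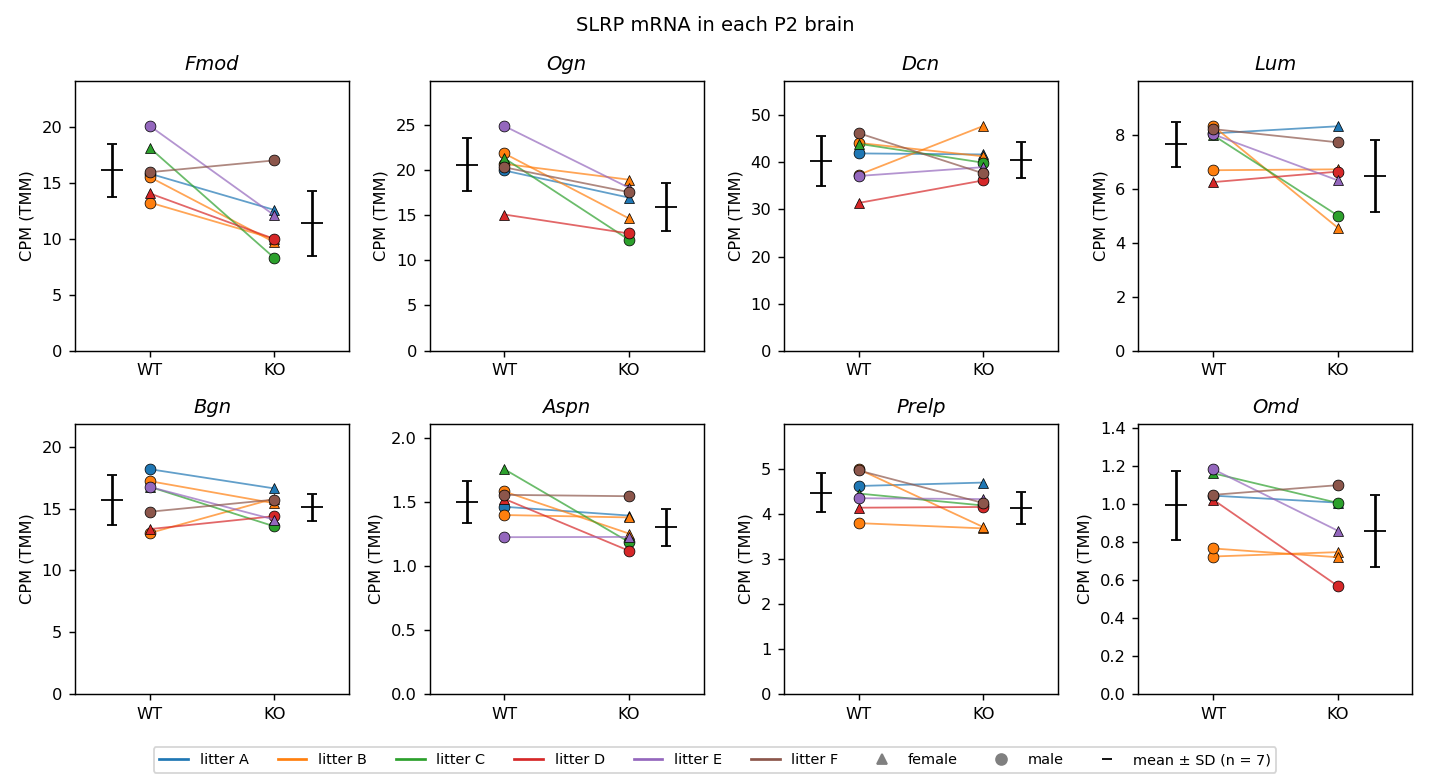
Level of each SLRP mRNA in each brain, in CPM with TMM factors on axes that start at 0. Each point is 1 brain, colour marks the litter and shape the sex, lines join WT and KO brains of the same replicate number, and bars are mean ± SD of 7 brains. Fmod was lower in KO in 6 of 7 pairs and Ogn in 7 of 7, while Dcn was lower in 4 of 7.

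The stretches of promoter printed here are those of the 2 members with the lowest p-values, Fmod and Ogn, and of Bgn, whose window is the richest in G and C among the members. They run from 150 bases before to 20 bases after the start of the gene in RefSeq on GRCm38.p6, 5′ to 3′ on the plus strand, which is the coding strand of all 3 genes. They cover chr1:134037104-134037273 for Fmod, chr13:49607865-49608034 for Ogn and chrX:73483451-73483620 for Bgn. Capitals in Fmod and Ogn mark the longest run of bases that the windows of these genes share, and capitals in Bgn mark the letters CCGCCC, the GC box read on the other strand.

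Fmod: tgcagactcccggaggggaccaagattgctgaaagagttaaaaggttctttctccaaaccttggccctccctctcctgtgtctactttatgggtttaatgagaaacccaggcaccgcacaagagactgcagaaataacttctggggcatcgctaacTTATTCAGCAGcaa

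Ogn: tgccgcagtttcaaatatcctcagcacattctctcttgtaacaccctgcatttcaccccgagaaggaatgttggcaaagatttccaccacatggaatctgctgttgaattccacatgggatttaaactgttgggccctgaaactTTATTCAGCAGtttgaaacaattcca

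Bgn: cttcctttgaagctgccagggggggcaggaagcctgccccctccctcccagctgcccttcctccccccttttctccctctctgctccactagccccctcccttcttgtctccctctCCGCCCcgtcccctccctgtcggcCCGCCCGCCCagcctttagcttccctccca

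Promoter windows of 300 bases, 250 before the start and 50 after it, were found for 6 of the 8 members, all but Dcn and Lum. The run shared by Fmod and Ogn, TTATTCAGCAG, is 11 bases long and lies at the RefSeq start of both genes. It stands 6 bases after the start of Fmod and 6 bases before that of Ogn, and 10 of 32851 RefSeq windows (0.0304%) hold it on either strand. In GENCODE, Ogn starts at 49608046, beyond the end of the printed stretch at 49608034, so that the run lies farther from that start. Runs of similar length are shared by other member pairs: over the 15 pairs of windows the longest shared run was between 7 and 12 bases, with a median of 9. The Fmod stretch is 48.2% G and C, that of Ogn 42.9% and that of Bgn 68.2%. The GC box GGGCGG, searched on both strands, was found in Bgn alone among the 6 windows, at 3 places of which 2 overlap, while 35.7% of all windows hold it. TATAAA was found in the windows of Ogn and Aspn, against 13.6% of all windows, and GGAATG, the letters bound by TEAD factors, in that of Ogn alone, against 14.7%. The E-box CANNTG was found in 5 of the 6 windows, against 72.3% of all, and the AP-1 letters TGANTCA in 0 of 6, against 7.81%. A match describes the letters of the window and not a bound site.

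The members lie in 3 groups of neighbouring genes and on chromosome X (GRCm38, GENCODE M21). On chromosome 1, Prelp (133910304 to 133921414, minus strand, 3 exons) lies 115.839 kb from Fmod (134037254 to 134048277, plus strand, 3 exons). On chromosome 10, Dcn (97479609 to 97518143) lies 46.984 kb before Lum (97565128 to 97572703), both on the plus strand. On chromosome 13, Aspn (49544443 to 49567565), Omd (49582462 to 49592822) and Ogn (49608046 to 49624501) follow each other on the plus strand, after the related gene Ecm2. Bgn (73483602 to 73495933, plus strand) is on chromosome X.

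Fold changes of neighbouring genes are set side by side here, and the differences between neighbours were not tested. On chromosome 13 the log2 fold changes of Ecm2, Aspn, Omd and Ogn were -0.19, -0.25, -0.27 and -0.39. On chromosome 10 that of Dcn was 0.00 and that of Lum -0.24, and on chromosome 1 that of Prelp was -0.10 and that of Fmod -0.55. The 4 genes on chromosome 13 lie within the span of Cenpp, a kinetochore gene on the minus strand, which shares 7 exon bases with Aspn and 0 with Ogn, Omd and Ecm2. Cenpp was at 2.93 ± 0.502 CPM in WT and 2.81 ± 0.351 CPM in KO (SD, n = 7), a log2 fold change of -0.03 (SE 0.0948). Prelp shares 350 exon bases with the antisense gene Gm15851. Outside the members, Capn15 shares 1105 exon bases with the antisense gene D630044L22Rik. Among related genes, Epyc shares 1041 with Gm10754 and Chadl 1023 with L3mbtl2. The strand setting of the counting is not given in the sources used here, so reads over shared bases cannot be assigned to 1 gene.

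Fmod (fibromodulin, ENSMUSG00000041559) binds type I collagen and limits the growth of fibrils in thickness. In WT replicates 1 to 7 it was at 15.8, 13.2, 15.5, 18.1, 14.04, 20.1 and 15.9 CPM, with a median of 15.8. In KO replicates 1 to 7 it was at 12.6, 9.98, 9.68, 8.27, 9.97, 12.1 and 17.0 CPM, with a median of 9.98. The KO brains of replicates 1 to 6 lay below every WT brain, and KO replicate 7 lay above 5 of the 7 WT brains. All 7 KO libraries lay below all 7 WT for 0.00558% of genes, and the 6 KO libraries without replicate 7 did so for 0.0335%. The mean was 16.1 ± 2.33 CPM in WT and 11.4 ± 2.88 CPM in KO (SD, n = 7). The log2 fold change was -0.55 (SE 0.106), with FDR 0.176 by edgeR's quasi-likelihood test. The exact permutation test of the difference in mean log2 CPM, two-sided over all regroupings of 7 against 7 brains, gave p = 0.00699, which was 1 after adjustment over all genes. Without litter F the log2 fold change of Fmod was -0.68 (SE 0.0811) with FDR 0.00506 by the quasi-likelihood test, where 0.039% of all genes were called. Leaving out KO replicate 7 alone gave the same fold change and FDR 0.00491, since its WT partner is then the only brain of its litter.

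Lum (lumican, ENSMUSG00000036446) is a keratan sulfate proteoglycan of cornea and skin that binds the same collagens as Fmod. It was between 6.25 and 8.33 CPM in WT, with a median of 8.02, and between 4.56 and 8.32 CPM in KO, with a median of 6.64. The genotypes overlapped over most of their range, and KO replicates 3 and 4 alone lay below all WT brains. The log2 fold change was -0.24 (SE 0.108), with FDR 0.959 by edgeR's quasi-likelihood test, and the level was lower in KO in 4 of 7 pairs. The exact permutation test gave p = 0.0804.

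Prelp (ENSMUSG00000041577), which links basement membranes to collagen through its basic end, was between 3.79 and 4.99 CPM in WT, with a median of 4.45. It was between 3.68 and 4.69 CPM in KO, with a median of 4.18, and the genotypes overlapped. Its log2 fold change was -0.10 (SE 0.0783), with p = 0.147 by the exact permutation test. Omd (osteomodulin, ENSMUSG00000048368), a proteoglycan of mineralized matrix, was the member with the fewest counts, between 27 and 61 a library. It was between 0.724 and 1.18 CPM in WT, with a median of 1.04, and between 0.569 and 1.10 CPM in KO, with a median of 0.860. Its log2 fold change of -0.27 had an SE of 0.150, the largest of the 8 members, and the exact permutation test gave p = 0.210.

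Ogn (osteoglycin or mimecan, ENSMUSG00000021390) belongs to the same class as epiphycan and opticin and takes part in the growth of collagen fibrils. In WT replicates 1 to 7 it was at 19.9, 20.7, 21.8, 21.3, 15.1, 24.9 and 20.3 CPM, with a median of 20.7. In KO replicates 1 to 7 it was at 16.9, 18.9, 14.6, 12.3, 12.97, 18.0 and 17.5 CPM, with a median of 16.9. Of the WT brains 6 lay above all KO brains, and WT replicate 5, of litter D, lay within the KO range. Every KO brain lay below its WT partner, which 0.597% of all genes also showed. The mean was 20.6 ± 2.92 CPM in WT and 15.9 ± 2.61 CPM in KO (SD, n = 7). The log2 fold change was -0.39 (SE 0.0735), with FDR 0.176 by edgeR's quasi-likelihood test. The exact permutation test gave p = 0.0128, and the exact sign-flip test over the 7 pairs gave 0.0156, the smallest p that 7 pairs allow. Neither passed the threshold after adjustment over all genes, where both exact tests called 0 genes. With 7 brains per genotype, these tests could call a gene after adjustment only if many genes reached their smallest p. Their 0 calls are therefore not read as a result on Ogn. Without litter F the log2 fold change was -0.43 (SE 0.0779), with FDR 0.166 by the quasi-likelihood test.

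The calls on Fmod and Ogn depended on the test. With the likelihood ratio test of edgeR the FDR was 0.000982 for Fmod and 0.000964 for Ogn. DESeq2 gave 0.0939 for Fmod and 0.00154 for Ogn, and limma-voom gave 0.210 and 0.206. When litter was replaced by a block for each replicate number, the quasi-likelihood FDR was 0.337 for Fmod and 0.232 for Ogn, and with genotype alone it was 1 for both.

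**Figure D2:**
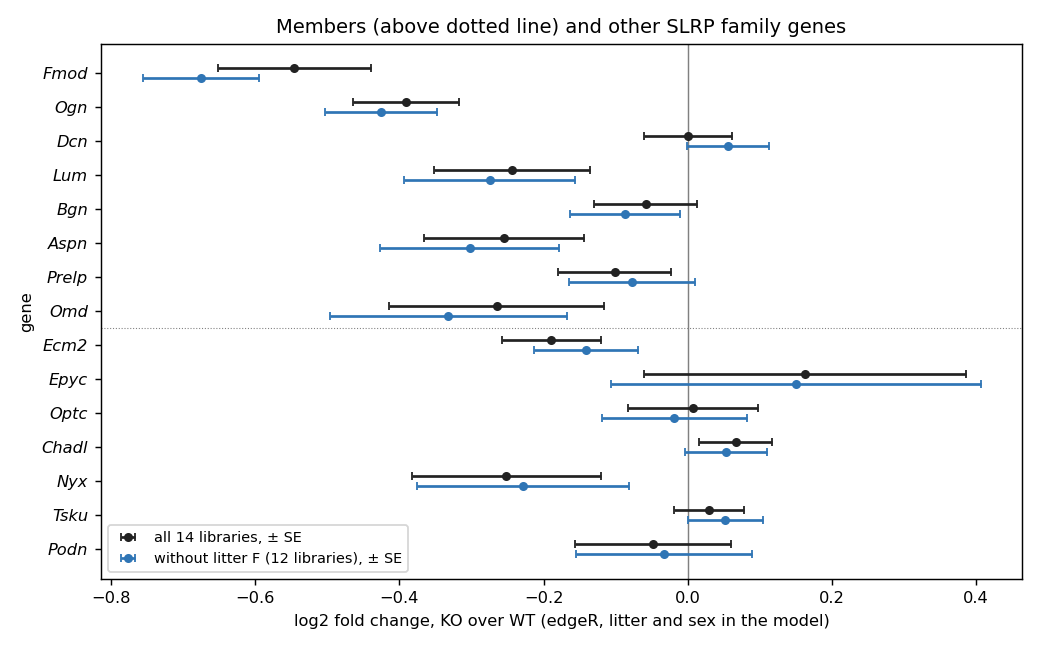
Log2 fold change of KO over WT, ± SE, for the 8 members above the dotted line and 7 other SLRP family genes below it, from edgeR with litter and sex in the model. Black points use all 14 libraries and blue points leave out litter F. Fmod moved from -0.55 to -0.68 without litter F and Dcn from 0.00 to 0.06.

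Dcn (decorin, ENSMUSG00000019929) is the dermatan sulfate proteoglycan that binds type I collagen and TGF-beta. It was between 31.4 and 46.2 CPM in WT, with a median of 41.9, and between 36.2 and 47.7 CPM in KO, with a median of 39.9. The lowest and the highest of the 14 brains were WT replicate 5 and KO replicate 2, and the genotypes overlapped. The mean was 40.3 ± 5.23 CPM in WT and 40.5 ± 3.74 CPM in KO (SD, n = 7). The log2 fold change was 0.00 with an SE of 0.0613, and the exact permutation test gave p = 0.888. The sign of this fold change turned in 10 of 24 alternatives, over a range from -0.09 to 0.06.

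Bgn (biglycan, ENSMUSG00000031375), the relative of decorin that also signals through Toll-like receptors once released, was between 13.03 and 18.2 CPM in WT, with a median of 16.8. It was between 13.6 and 16.6 CPM in KO, with a median of 15.4, so that all KO brains lay within the WT range. Its log2 fold change was -0.06 (SE 0.0714), with p = 0.530 by the exact permutation test. Aspn (asporin, ENSMUSG00000021388), which carries a run of aspartate residues and binds collagen and TGF-beta, was between 1.22 and 1.76 CPM in WT, with a median of 1.52. It was between 1.12 and 1.54 CPM in KO, with a median of 1.25, and was lower in KO in 6 of 7 pairs. Its log2 fold change was -0.25 (SE 0.111), with FDR 0.954 by the quasi-likelihood test, and p = 0.0350 by the exact permutation test. The counts of Aspn lay between 47 and 89 a library.

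Levels of different genes can be compared once divided by length. Per kilobase of exon, Ogn was highest in WT at 8.01 ± 1.14 CPM per kb, followed by Dcn at 6.90 ± 0.895 and Fmod at 4.87 ± 0.706 (SD, n = 7). Lum stood at 3.12 ± 0.337, Bgn at 2.58 ± 0.330 and Prelp at 1.24 ± 0.120 CPM per kb. The lowest levels were 0.637 ± 0.0701 for Aspn and 0.442 ± 0.0803 CPM per kb for Omd. Ogn lay above 66.2% of all genes in WT on this scale and Omd above 14.4%. The WT ranges of Ogn and Dcn overlapped, and Ogn was the higher in 8 of 14 libraries, so that their order is not beyond the spread between brains. The WT ranges of Dcn and Fmod, of Lum and Bgn, and of Aspn and Omd also overlapped, but within a library Dcn was above Fmod in 14 of 14, Lum above Bgn in 12 of 14 and Aspn above Omd in 13 of 14. Those of Fmod and Lum, of Bgn and Prelp, and of Prelp and Aspn did not overlap. With the longest transcript as the length, Bgn was at 5.90 ± 0.756 and Dcn at 8.59 ± 1.11 CPM per kb, which placed Dcn above Ogn and Bgn above Fmod.

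**Figure D3:**
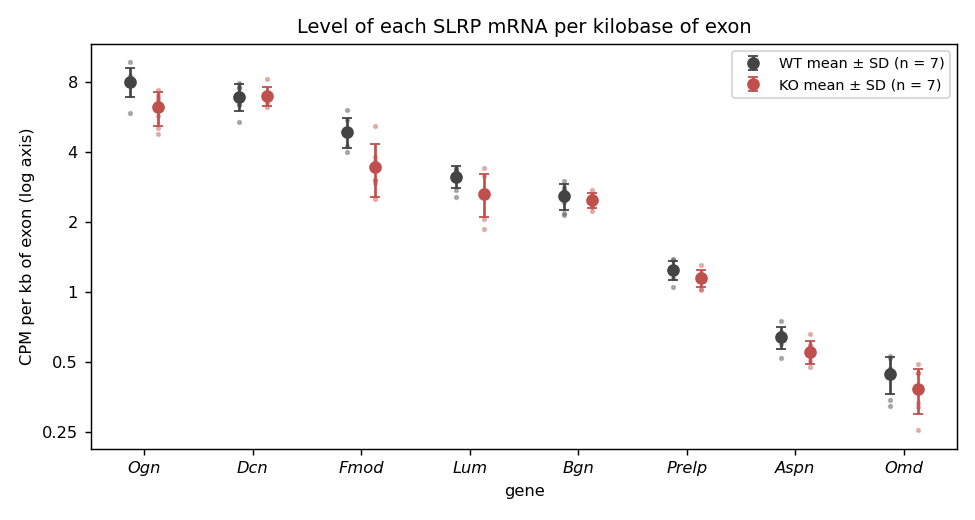
Level of each member per kilobase of exon, in CPM per kb on a log axis, with small points for single brains and large points with bars for mean ± SD of 7 WT (grey) or 7 KO (red) brains. In KO the mean of Dcn, 6.94, stood above that of Ogn, 6.20.

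Within a library the levels of members can be set against each other without any scaling between libraries. The log2 ratio of Fmod to Dcn lay between -1.53 and -0.89 in WT and between -2.27 and -1.15 in KO, where KO replicate 7 was the highest. Without that brain the highest KO ratio was -1.69, below all WT brains. The log2 ratio of Fmod to Bgn lay between -0.20 and 0.26 in WT and between -0.71 and 0.11 in KO. KO replicate 7, the highest KO brain, lay within the WT range, and every KO brain was below its WT partner. That of Ogn to Dcn lay between -1.19 and -0.58 in WT and between -1.70 and -1.10 in KO, and was lower in KO in 6 of 7 pairs. The ratio of Dcn to Bgn differed little, with a mean log2 ratio of 1.36 ± 0.180 in WT and 1.42 ± 0.125 in KO (SD, n = 7). These ratios were read after the levels of both genes were known and carry no test.

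The summed level of the 8 members lay between 86.8 and 115.5 CPM in WT, with a median of 113.0, and between 85.4 and 105.0 CPM in KO, with a median of 95.9. It was lower in KO in 6 of 7 pairs, or in 7 of 7 with the partners in litter B exchanged. Pairs differed in how many members followed this direction: 8 of 8 members were lower in KO in replicates 3 and 4, 6 in replicates 1 and 6, 5 in replicate 7 and 4 in replicates 2 and 5. The counts for replicates 2 and 3, both of litter B, rest on partners joined by number alone. With these exchanged, 6 members were lower in KO replicate 3 than in WT replicate 2, and 7 in KO replicate 2 than in WT replicate 3. The share of all genes lower in each pair is not given here, so these counts describe the pairs only.

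Between litters 29.6% of all genes were called by edgeR's quasi-likelihood test. Of the members 1 of 8 was called, Ogn, with FDR 0.0269. The mean of Ogn ran from 14.01 CPM in litter D to 21.4 CPM in litter E, a ratio of 1.53, and that of Prelp spanned a ratio of 1.15. Litter D had the lowest mean of Fmod, Ogn, Dcn, Lum and Bgn. Within litters, Ogn was lower in KO in 6 of 6, with log2 differences between -0.79 and -0.21. Fmod was lower in 5 of 6 litters, by 1.13 on the log2 scale in litter C, and was 0.09 higher in litter F. Dcn was lower in 3 of 6 litters, with differences between -0.29 and 0.20.

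**Figure D4:**
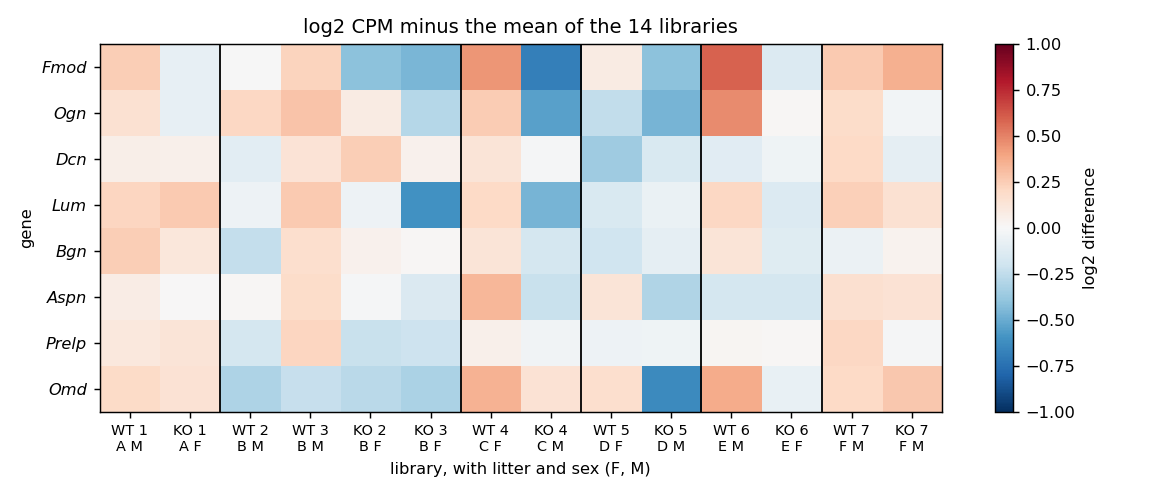
Log2 CPM of each member minus its mean over the 14 libraries, from blue (lower) to red (higher), with libraries ordered by litter. Vertical lines separate the 6 litters and letters under each library give litter and sex. KO replicate 4 of litter C holds the lowest level of Fmod and of Ogn, and KO replicate 3 the lowest level of Lum.

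Sex called 0.0669% of all genes, which is 12, and 0 of the 8 members, X-linked Bgn included, by edgeR's quasi-likelihood test. No member had an unadjusted p under 0.05 for sex, the lowest being 0.146 for Aspn, and the likelihood ratio test and DESeq2 also called 0 members. In replicates 1 to 6 the brains of a pair were of opposite sex. Groups of 1 sex are small, and among male brains all KO lay below all WT for 1.31% of all genes and for 1 of 8 members, Ogn. Among male brains Ogn was between 19.9 and 24.9 CPM in 5 WT and between 12.3 and 17.5 CPM in 3 KO brains. Among female brains it was 15.1 and 21.3 CPM in the 2 WT and between 14.6 and 18.9 CPM in the 4 KO brains, which overlap. Among female brains all KO lay below all WT for 5.97% of all genes and for 3 of 8 members, Fmod, Aspn and Omd. Fmod was between 14.04 and 18.1 CPM in the 2 female WT brains and between 9.68 and 12.6 CPM in the 4 female KO brains, while among males KO replicate 7 lay within the WT range.

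The levels of most pairs of members were positively correlated across brains. Over the 28 pairs of members and 14 libraries, Pearson's r of log2 CPM lay between -0.03 and 0.80 with a median of 0.46, and was positive for 26 of 28 pairs. After the mean of each genotype was removed it lay between 0.00 and 0.71 with a median of 0.39, and was positive for 28 of 28 pairs. The highest values were 0.80 for Fmod with Ogn and 0.78 for Fmod with Lum, and the lowest were -0.03 for Fmod with Dcn and 0.00 for Dcn with Omd. Libraries of a litter, sex and scaling are shared by all genes, so that these values describe the 14 libraries, and no share over pairs of other genes was computed.

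The other SLRP family genes in the table numbered 7 of 10 listed, and 0 of 7 were called between genotypes by the quasi-likelihood test. At an unadjusted p under 0.05, 1 was lower in KO, Ecm2, a matrix protein with leucine-rich repeats next to Aspn. Ecm2 was between 4.70 and 5.22 CPM in WT and between 3.69 and 5.17 CPM in KO, and was lower in KO in 7 of 7 pairs, or in 6 of 7 with the partners in litter B exchanged. Its log2 fold change was -0.19 (SE 0.0690), with FDR 0.812 by edgeR's quasi-likelihood test, and p = 0.0344 by the exact permutation test. Nyx, the nyctalopin of retinal bipolar cells, was at 1.32 ± 0.163 CPM in WT and 1.09 ± 0.143 CPM in KO (SD, n = 7), a log2 fold change of -0.25 (SE 0.131). Nyx was lower in KO in 6 of 7 pairs, also with the partners in litter B exchanged, and the exact permutation test gave p = 0.0210. The remaining 5, Epyc, Optc, Chadl, Tsku and Podn, had log2 fold changes between -0.05 and 0.16, with the lowest p by the exact permutation test 0.279, for Chadl. The sum of the 7 genes was lower in KO in 2 of 7 pairs. Tsku, a secreted regulator of several growth factors, differed between litters with FDR 0.00164 by the quasi-likelihood test.

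The genes that SLRPs work with were described by lists. Of 14 collagens bound by SLRPs, 0 had an unadjusted p under 0.05 in either direction by the quasi-likelihood test, where 2.26% of all genes were lower in KO and 2.88% higher. Their median log2 fold change was -0.05, and their summed level was between 563 and 774 CPM in WT and between 619 and 748 CPM in KO. Col1a1, a chain of type I collagen, was at 54.6 ± 16.7 CPM in WT and 54.6 ± 6.82 CPM in KO (SD, n = 7). In the fit, which accounts for litter and sex, Col1a1 had a log2 fold change of 0.14 (SE 0.0802), the highest of the list. Col5a1 and Col5a2, chains of the type V collagen that starts fibrils, had log2 fold changes of -0.06 (SE 0.0366) and -0.07.

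Of 17 genes of collagen crosslinking and processing, 0 had an unadjusted p under 0.05, and their median log2 fold change was -0.03. Pcolce, which enhances removal of the procollagen end, had a log2 fold change of -0.15. Of 27 enzymes that build or sulfate the glycosaminoglycan chains, 1 was lower in KO at an unadjusted p under 0.05 and 0 were higher, with a median log2 fold change of -0.02. The lower one was Ust, a uronyl sulfotransferase, at 23.6 ± 3.60 CPM in WT and 22.3 ± 3.45 CPM in KO (SD, n = 7). Of 6 proteases that degrade SLRPs 0 had an unadjusted p under 0.05, and among them Mmp14, a membrane-bound matrix metalloprotease, had a log2 fold change of -0.04.

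Of 21 receptors and bound ligands of SLRPs, 5 were higher in KO and 1 lower at an unadjusted p under 0.05 by the quasi-likelihood test. The 5 were Lrp1, an endocytic receptor that takes up decorin, the growth factor receptors Met and Igf1r, and C1qb and C1qc, chains of complement C1q. Lrp1 was at 482 ± 41.1 CPM in WT and 526 ± 28.1 CPM in KO (SD, n = 7), a log2 fold change of 0.15 (SE 0.0351) with FDR 0.377. C1qb was at 15.8 ± 1.23 CPM in WT and 18.3 ± 2.92 CPM in KO, a log2 fold change of 0.22 (SE 0.0573). No gene of these 5 lists was called at FDR 0.05 by the quasi-likelihood test. With DESeq2 the FDR of Lrp1 was 0.0249, so that its call depended on the test.

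Markers of the cell types that a brain sample can hold were read beside the members. The 16 meningeal fibroblast markers were detected in every library, and their sum was between 138 and 174 CPM in WT and between 124 and 164 CPM in KO, lower in KO in 6 of 7 pairs, or in 5 of 7 with the partners in litter B exchanged. Of these markers 6 of 16 were lower and 1, Slc47a1, was higher in KO at an unadjusted p under 0.05 by the quasi-likelihood test. Over all genes 2.26% were lower and 2.88% higher at that p. The median log2 fold change of the 16 markers was -0.10. The 7 choroid plexus markers were lower in KO in sum in 7 of 7 pairs, between 58.4 and 79.6 CPM in WT and between 51.1 and 71.8 CPM in KO, and 6 of 7 had an unadjusted p under 0.05. Of 10 pericyte and smooth muscle markers 3 were lower at that p. The sum of 7 bone and cartilage markers was between 20.6 and 26.8 CPM in WT and between 20.3 and 26.5 CPM in KO, and 0 of 7 had an unadjusted p under 0.05. The sum of 4 skeletal muscle markers was between 9.18 and 11.97 CPM in WT and between 9.01 and 12.5 CPM in KO. Of these 4 genes 4 had a fold change above 0, and 1, Myh8, was higher at an unadjusted p under 0.05. Of 8 endothelial markers 1, Cldn5, was higher at that p and 0 were lower. Of 8 neuron markers 1 was lower at that p, as was 1 of 5 astrocyte markers, and 0 of either list were higher. All 6 oligodendrocyte lineage markers had a log2 fold change below 0, but 0 passed that p. Of 5 microglia markers 0 passed it. Red blood cell markers varied from 31.0 to 322 CPM in WT and from 35.4 to 240 CPM in KO. No listed marker in the table was at 0 in any library. The part of these cell types in the levels of the members was not tested.

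Across the 14 libraries the summed level of the members was correlated with that of the meningeal markers, both on the log2 scale. Pearson's r was 0.46 (permutation p = 0.100, adjusted 0.186) and Spearman's rho was 0.54 (permutation p = 0.0511, adjusted 0.146). These were computed over 4 sets of libraries, and the adjustment is over the 4. Without the 2 libraries farthest from the median of the markers, KO replicate 1 and WT replicate 6, r was 0.54 (permutation p = 0.0743). Within the 7 WT brains r was 0.65 (permutation p = 0.140) and within the 7 KO brains it was 0.00 (permutation p = 0.999). The relation did not pass the threshold in any of these sets, adjusted or not. Without KO replicate 1 alone r was 0.60 with an unadjusted permutation p of 0.0337.

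**Figure D5:**
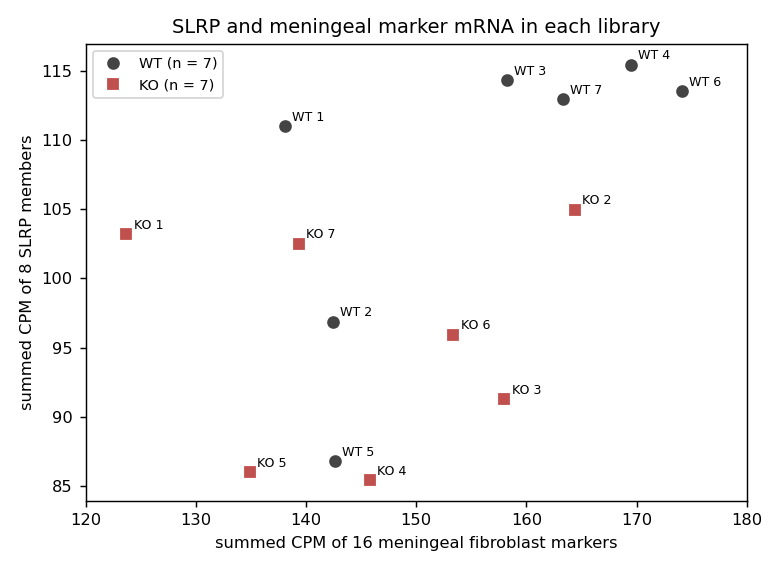
Summed level of the 8 members (vertical axis, CPM) against the summed level of 16 meningeal fibroblast markers (horizontal axis, CPM), with 1 point per library, circles for WT and squares for KO. Neither axis starts at 0. KO replicate 1 had the lowest marker sum, 124 CPM, and a member sum above those of WT replicates 2 and 5.

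The genes outside the lists whose pattern was most like that of the members were found by Pearson's r, over 14 libraries, with the mean of the members' centred and scaled log2 CPM, among 15055 genes of at least 1 CPM. The first 3 were Bche (butyrylcholinesterase) at 0.87, Angptl2 (a secreted angiopoietin-like protein) at 0.86 and Slc22a8 (an organic anion transporter) at 0.85. Enpp2 (autotaxin) and Fxyd1 (phospholemman) followed at 0.84, and Thbs2, Aebp1, Slc13a3, Plaat3 and Mfap4 stood between 0.81 and 0.83. Their log2 fold changes lay between -0.44, for Angptl2, and -0.13, and the shared sign follows from the way they were chosen, since 7 of 8 members had a fold change below 0. Enpp2, at 121 ± 12.9 CPM in WT and 105 ± 5.97 CPM in KO (SD, n = 7), was lower in KO in 7 of 7 pairs, with FDR 0.166 by the quasi-likelihood test. Its FDR was 0.000987 by the likelihood ratio test and 0.000396 by DESeq2. The order of this list depends on single libraries, and without KO replicate 4, for example, 3 of the 10 genes stayed among the first 10.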

How the data were processed

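RNA-SEQ of 14 P2 brains was used. The study's methods name Trimmomatic for trimming, STAR for alignment to GRCm38 and HTSeq-count for counting, while the submitters' processing notes name featureCounts. The labels and the methods also name different library kits. The strand setting, annotation release and gene filter are not given in the sources used here. The authors deposited raw counts, 1 column per brain, for 17927 genes. Genotype came from the labels, litter and sex from the column names. The table with symbols gave the members, and positions came from GENCODE M21. No column of values was left unused. No 2 libraries were copies (lowest chi-square 4.66 per gene).

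Counts were analysed with R 4.3.3, edgeR 4.0.16, limma 3.58.1, DESeq2 1.42.0, Python 3.11.15 and scipy 1.17.1. All genes with at least 1 count were fitted (quasi-likelihood test, TMM, litter, sex and genotype) and log2 CPM used a prior count of 2. Exact permutation tests were two-sided, the smallest p being 0.000583, and correlations used 100000 permutations. The scripts were tested on simulated data. The members and lists were chosen with earlier results of these data known. Named genes are Capn15, the members, other family genes, overlapping genes, up to 3 per list by lowest p (for marker lists, by level) and the 10 most alike. Genes of a list named for an unadjusted p under 0.05 outside this rule were chosen after their values were seen. Replicate numbers pair brains of 1 litter, as the column names show, but litter B holds numbers 2 and 3, whose partners were also exchanged, a choice made after seeing the data. Deviations of same-numbered brains correlated between -0.47 and 0.44. Litter was a term of the main model, and the replicate block was an alternative. In all, 24 alternatives were fitted. The values of 1 gene of a list, which stays in every fit and count, are not reported here. P-values of the main fit rest on the spread between brains that is left after litter and sex. Those of the exact permutation test rest on brains regrouped without regard to litter, and those of the sign-flip test on pair differences. P-values of the correlations rest on shuffled libraries.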

Additional observations from a re-analysis of the deposited data

Results flagged for a closer look

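No level of a member stood apart within its genotype. Of 34 groups of 7 brains examined, 2 held a brain whose gap to the nearest brain, as a share of the range of its group, was above Dixon's critical value at 95%, and chance gives about 1 in 20 such groups. Both were for Capn15 in litter F. In the library labelled WT replicate 7 Capn15 was the lowest of the WT brains, with a gap of 0.761 of the range (log2 CPM 4.23, the nearest being 4.64). In the library labelled KO replicate 7 it was the highest of the KO brains, with a gap of 0.647 of the range (log2 CPM 4.34, the nearest being 3.87).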

How the results depend on the processing

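Between genotypes 1 gene and 0 members were called by edgeR's quasi-likelihood test. The likelihood ratio test called 34 genes and 2 members, DESeq2 17 and 1, and a fit without litter F 7 and 1. Library totals alone called 0 genes, litter without sex called 2, and a replicate block in place of litter called 0 genes and 0 members. Leaving out single libraries gave 0 to 7 genes and 0 to 1 member, the member being Fmod without replicate 7 of WT or of KO. For sex, where 12 genes were called, the likelihood ratio test called 36 and DESeq2 19. For litter, 1 member and 29.6% of all genes were called in the main fit. The likelihood ratio test called 3 members, DESeq2 2 and a fit without litter F 2. Leaving out single libraries gave 0 to 2 members, with 0 without WT replicate 5, WT replicate 6 or KO replicate 1. The share of all genes called for litter in these alternatives is not given here, so these counts are not read as a result on the members. The correlation of the summed members with meningeal markers ranged from 0.38 to 0.60 when single libraries were left out, and without KO replicate 1 its permutation p was under 0.05 before any adjustment. The exact permutation test called 0 genes in all alternatives, the paired sign-flip test included. With so few brains these tests could call a gene after adjustment only if many genes reached their smallest p. Their 0 calls therefore do not show whether the results depend on the processing. The cause of these changes was not tested.

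Fmod, Ogn, Lum, Aspn, Prelp and Omd kept a log2 fold change below 0 in all 24 alternatives, with Fmod between -0.68 and -0.36 and Ogn between -0.48 and -0.26. Of the fold changes, 8 changed sign under some alternative, most of them near 0 in the main model, but Col1a1 was 0.14 and Mmp9 -0.14 there. Dcn was -0.00071 with DESeq2, -0.0011 with limma-voom, -0.0011 with RLE size factors and -0.0022 with library totals alone, and ranged from -0.092 to 0.056 when single libraries were left out. Optc was -0.00069 with limma-voom and -0.019 without litter F, and ranged from -0.032 to 0.080. Col1a1 was -0.00049 with genotype alone. When single libraries were left out, Bgn ranged from -0.12 to 0.035, Chadl from -0.0038 to 0.15, Podn from -0.19 to 0.064, Cenpp from -0.074 to 0.018 and Mmp9 from -0.28 to 0.041. Among the members depth limits Omd and Aspn most, since no library held more than 61 counts of Omd or 89 of Aspn.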
